A study of Homo sapiens with 15 samples.

Results

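AMIGO2, PCED1B and RPAP3 are neighbouring genes on human chromosome 12, and their RNA was followed here in breast cancer cells given steroid compounds. AMIGO2 was lower in all 4 treated groups than in vehicle, most with MPA, where its level was 0.426 of the vehicle level. PCED1B reached 0.584 and RPAP3 0.814 of the vehicle level with MPA. These genes were chosen by measured values, and the exact basis of the choice is not stated. AMIGO2 is taken here as chosen by its lower level with the compounds in earlier results of the same arrays. PCED1B and RPAP3 are taken as chosen as its neighbours, with their values also known. Every difference of these 3 genes, from vehicle or between compounds, is therefore given as a description, without a test. They are 3 of the 14361 genes that the platform annotation names on these arrays by a probe set with 1 gene symbol. Each has 1 such probe set of the 34878 in the deposited table: 16763600 for AMIGO2, 16750416 for PCED1B and 16763626 for RPAP3.

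ZR-75-1 is an established human breast cancer cell line of luminal, estrogen receptor-positive type. The cells were kept in RPMI-1640 medium with serum and exposed for 6 h to 10 nM of MPA, PROG, DHT or DEX, or to vehicle, which was 0.1% ethanol. Each of the 5 groups had 3 arrays of total RNA, 15 in all. Read in the usual way, the abbreviations stand for medroxyprogesterone acetate, progesterone, dihydrotestosterone and dexamethasone. Medroxyprogesterone acetate is a synthetic progestin built on progesterone by adding a methyl and an acetoxy group. Dihydrotestosterone is an androgen, and dexamethasone is a synthetic glucocorticoid with a fluorine and a methyl group. The control arrays also carry the label untreated, and no source used here says in what the compounds were dissolved, so an effect of solvent cannot be told apart from a compound effect in comparisons with vehicle. The labels do not say whether arrays of a group came from separate cultures, so the p-values reflect array-to-array spread alone, possibly technical. In a bulk RNA sample, fewer cells that express a gene and less of its RNA per cell cannot be told apart.

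AMIGO2 encodes a cell surface adhesion protein with leucine-rich repeats and an immunoglobulin domain, a family first described in neurons, and it is known to bind the kinase PDK1, which activates Akt. PCED1B encodes a member of the PC-esterase domain family, which is little studied. RPAP3 encodes a co-chaperone that brings HSP90 to the R2TP complex, where it acts with PIH1D1 and the ATPases RUVBL1 and RUVBL2 in assembling RNA polymerase II, box C/D small nucleolar ribonucleoproteins and PI3K-like kinases. The receptors of the steroids used here are ligand-activated transcription factors that bind DNA at palindromes of hexamer half-sites and that can also act through AP-1 sites.

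The promoter windows show how close AMIGO2 and PCED1B lie. In RefSeq's GRCh38.p14 annotation both genes are transcribed from opposite strands, and the PCED1B start lies 330 bases inside AMIGO2, measured from the nearer of the annotated AMIGO2 starts, so that the 5′ ends overlap. The RPAP3 start is 626 kb from that of PCED1B, on the same strand as AMIGO2. Probe positions were not used here, so whether a probe of either probe set lies in the shared stretch is not known. All 3 genes had a window in the RefSeq table, covering 250 bases before and 50 bases after the start. The windows are printed 5′ to 3′ on the strand of the gene, and capitals mark an AP-1 site, TGACTCA or its reverse complement TGAGTCA. They lie at chr12:47079902-47080201 on the minus strand for AMIGO2, chr12:47079371-47079670 on the plus strand for PCED1B and chr12:47705981-47706280 on the minus strand for RPAP3.
AMIGO2: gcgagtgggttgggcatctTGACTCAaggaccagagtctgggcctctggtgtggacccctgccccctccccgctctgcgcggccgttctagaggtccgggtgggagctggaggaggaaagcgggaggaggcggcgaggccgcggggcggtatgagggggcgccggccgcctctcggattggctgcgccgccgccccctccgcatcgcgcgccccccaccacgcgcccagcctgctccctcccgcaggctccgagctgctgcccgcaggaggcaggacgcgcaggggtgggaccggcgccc
PCED1B: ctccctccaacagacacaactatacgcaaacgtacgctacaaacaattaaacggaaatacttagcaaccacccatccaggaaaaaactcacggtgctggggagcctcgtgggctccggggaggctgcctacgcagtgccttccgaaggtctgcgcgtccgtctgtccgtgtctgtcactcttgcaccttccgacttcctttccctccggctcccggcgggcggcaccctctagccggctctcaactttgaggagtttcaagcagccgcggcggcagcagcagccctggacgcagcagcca
RPAP3: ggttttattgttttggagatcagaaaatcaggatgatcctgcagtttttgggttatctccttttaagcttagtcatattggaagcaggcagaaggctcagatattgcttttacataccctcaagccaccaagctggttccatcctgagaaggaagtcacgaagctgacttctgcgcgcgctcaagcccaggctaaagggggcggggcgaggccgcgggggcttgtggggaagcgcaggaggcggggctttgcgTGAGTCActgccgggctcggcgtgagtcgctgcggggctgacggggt

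The AMIGO2 window is the richest in G and C of the 3, at 75.3%, against 60.0% for PCED1B, 56.3% for RPAP3 and a median of 58.7% over all windows of this length. A second annotated AMIGO2 start, 8 bases away, gives nearly the same window. The 6 motifs searched on both strands were the steroid receptor half-site AGAACA, its full palindrome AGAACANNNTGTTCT, the AP-1 site TGACTCA, the estrogen receptor half-site AGGTCA, the GC box GGGCGG and the E-box CACGTG. The palindrome contains the half-site, so a match to the first is also one to the second. The AP-1 site was found in AMIGO2 from position -231 and in RPAP3 from position 4, counted from the start, and not in PCED1B. It is present in 4.95% of the 35093 windows. A GC box was found in all 3 windows, 2 of them in AMIGO2, and in 44.9% of all windows. The windows of the 3 genes held no AGAACA, which 14.8% of all windows hold, no AGGTCA, which 13.8% hold, no CACGTG, which 7.26% hold, and no full palindrome, which 0.00285% hold. These matches describe letters in a short window only.

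Levels are the deposited log2 values, given as the mean ± SD of 3 arrays. AMIGO2 read 8.24, 8.31 and 8.13 on the vehicle arrays (8.23 ± 0.0907). With MPA it read 6.76, 7.25 and 6.98 (7.00 ± 0.245). All MPA arrays lay below every other array, since the highest of them, 7.25, was under the lowest of the other 12, 7.48.

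With PROG, AMIGO2 read 7.57, 7.60 and 7.48 (7.55 ± 0.0624). With DHT it read 7.74, 7.70 and 7.82 (7.75 ± 0.0611). With DEX it read 7.60, 7.63 and 7.87 (7.70 ± 0.148). The PROG, DEX and DHT arrays therefore formed 1 middle band in which the PROG and DEX arrays met at 7.60 and the DEX and DHT arrays overlapped. The PROG arrays all lay below the DHT arrays. The highest treated array, 7.87, stayed under the lowest vehicle array, 8.13, and all 12 treated arrays lay below the vehicle arrays.

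PCED1B, the esterase-family gene that starts inside AMIGO2, was the dimmest of the 3 probe sets but above the array medians of 3.69 to 3.73. It read 5.42, 5.35 and 5.30 with vehicle (5.36 ± 0.0603). It read 4.43, 4.76 and 4.55 with MPA (4.58 ± 0.167), and again all MPA arrays lay below the other 12, whose lowest was 4.84. With PROG it read 5.08, 5.13 and 4.92 (5.04 ± 0.110), below all vehicle arrays. With DHT it read 5.08, 5.51 and 5.23 (5.27 ± 0.218). With DEX it read 4.84, 5.05 and 5.24 (5.04 ± 0.200). The DHT arrays straddled the vehicle arrays: 1 of them, at 5.51, was higher than any vehicle array, and the other 11 treated arrays were below all vehicle arrays.

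RPAP3, the HSP90 co-chaperone gene, moved least. It read 8.95, 8.78 and 8.78 with vehicle (8.84 ± 0.0981). With MPA it read 8.51, 8.56 and 8.55 (8.54 ± 0.0265). The MPA arrays were again the 3 lowest of the 15, and the lowest other array was at 8.66.

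With PROG, RPAP3 read 8.67, 8.66 and 8.69 (8.67 ± 0.0153). With DHT it read 8.73, 8.67 and 8.67 (8.69 ± 0.0346). With DEX it read 8.70, 8.66 and 8.66 (8.67 ± 0.0231). The 9 arrays of these 3 groups spanned the narrow range from 8.66 to 8.73, just under the lowest vehicle values of 8.78.

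**Figure D1:**
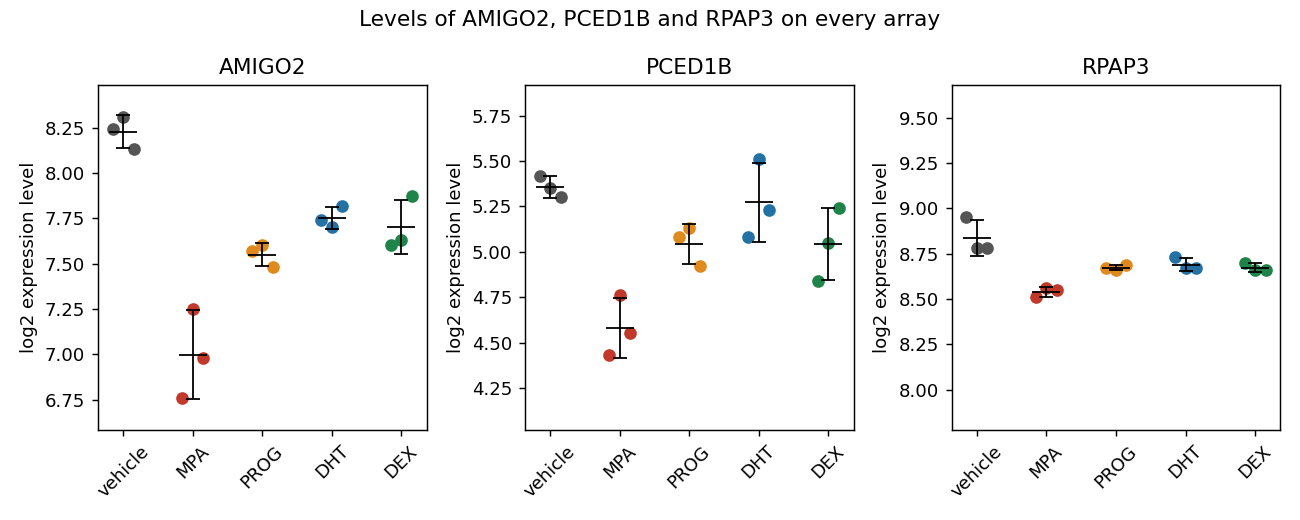
Log2 expression level (vertical axis, 1 panel per gene with its own range) of AMIGO2, PCED1B and RPAP3 by group; points are single arrays, the long bar is the mean and the whiskers are ± 1 SD of 3 arrays. The MPA arrays are the lowest in each panel, and the PROG, DHT and DEX arrays lie between them and vehicle, except for 1 DHT array of PCED1B at 5.51.

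The order of the group means, from low to high, was MPA, PROG, DEX, DHT and vehicle for each gene, with PROG and DEX at equal rounded means for PCED1B (5.04) and RPAP3 (8.67). The step from MPA to PROG was free of overlap for all 3 genes, at 0.55 for AMIGO2, 0.46 for PCED1B and 0.13 for RPAP3 between the means. The steps from PROG to DEX and from DEX to DHT overlapped for all 3 genes and do not order DEX against PROG or DHT. PROG and DHT did not overlap for AMIGO2, with the highest PROG array at 7.60 and the lowest DHT array at 7.70. The step from DHT to vehicle was free of overlap for AMIGO2 (0.47) and RPAP3 (0.15) and overlapped for PCED1B (0.08). How often all named probe sets show such a gap between 2 groups was not counted. The gaps between 2 groups are therefore a description and no result about these genes. Across all 14841 named probe sets, 1.38% had the 3 MPA arrays below the other 12, and 0.66% had the 12 treated arrays below the 3 vehicle arrays. All 3 genes met the first pattern, and AMIGO2 and RPAP3 met the second, which the choice of the genes uses and which supports nothing.

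As differences from vehicle, in log2 with the 95% interval of the limma fit (SE 0.102), AMIGO2 stood at -1.23 with MPA (-1.45 to -1.01). It stood at -0.68 with PROG (-0.90 to -0.46), -0.53 with DEX (-0.75 to -0.31) and -0.47 with DHT (-0.69 to -0.25). These correspond to 0.626 of the vehicle level with PROG, 0.694 with DEX and 0.720 with DHT. Ranked among the 14841 named probe sets from the lowest difference up, AMIGO2 was in place 1 with MPA, 4 with PROG, 7 with DEX and 11 with DHT. The share of probe sets lower than vehicle at a limma adjusted p under 0.05 was 1.82% with MPA, 0.391% with PROG, 0.115% with DHT and 0.148% with DEX.

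PCED1B differed from vehicle by -0.78 with MPA (-1.03 to -0.53; SE 0.117), place 3 in the same ranking. With PROG and with DEX its difference was -0.31 (-0.56 to -0.06), or 0.805 of the vehicle level, in places 67 and 65. With DHT it was -0.08, and the interval of -0.33 to 0.17 included 0; it was 0.01 without DHT 1, -0.05 without vehicle 1 and -0.20 without DHT 2. RPAP3 differed by -0.30 with MPA (-0.40 to -0.20; SE 0.0471), -0.16 with PROG (-0.26 to -0.06), -0.16 with DEX (-0.26 to -0.06) and -0.15 with DHT (-0.25 to -0.05). Without vehicle 1, the highest vehicle array, the differences with PROG and DEX were -0.11 and that with DHT was -0.09. Its places were 216, 697, 586 and 847, so many probe sets lay further below vehicle. The comparisons with vehicle share the same 3 vehicle arrays and are not independent of each other.

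The compounds were set against each other in 6 pairs, in the same cells and at the same dose and time. These differences leave out the vehicle arrays, while their intervals use the spread of all 15 arrays. The differences rest on treated arrays whose low values led to the choice of the genes. So they too are given as descriptions with 95% intervals of the limma fit and no p. The 3 pairs with MPA share the MPA arrays. AMIGO2 stood lower with MPA than with DHT by -0.76 (-0.98 to -0.54), or 0.592 of the DHT level. Against DEX the difference was -0.70 (-0.92 to -0.48), or 0.614 of the DEX level. Between MPA and PROG, which differ by the methyl and acetoxy groups that MPA carries, it was -0.55 (-0.77 to -0.33), or 0.681 of the PROG level. All MPA arrays lay below all arrays of the other compounds, and leaving out single arrays gave -0.68 to -0.44 for the difference from PROG.

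PCED1B stood lower with MPA than with DHT by -0.69 (-0.94 to -0.44), or 0.618 of the DHT level. Against DEX and against PROG the difference had the same size, -0.46 (-0.71 to -0.21), or 0.725 of the other level. Leaving out single arrays gave -0.57 to -0.37 for the difference from DEX. For RPAP3 the differences of MPA were -0.15 against DHT (-0.25 to -0.05) and -0.13 against both DEX and PROG (-0.23 to -0.03). The MPA arrays of both genes lay below all arrays of the other compounds.

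Among PROG, DHT and DEX the intervals of all 3 genes included 0. AMIGO2 differed by -0.20 between PROG and DHT (-0.42 to 0.02), by -0.15 between PROG and DEX (-0.37 to 0.07) and by 0.05 between DHT and DEX (-0.17 to 0.27). PCED1B differed by -0.23 between PROG and DHT (-0.48 to 0.02), by 0.00 between PROG and DEX (-0.25 to 0.25) and by 0.23 between DHT and DEX (-0.02 to 0.48). For RPAP3 all 3 intervals lay within -0.12 and 0.12. The AMIGO2 difference of PROG from DEX was -0.07 without DEX 3, and the PCED1B difference of PROG from DHT was -0.11 without DHT 2. The intervals of AMIGO2 and PCED1B leave room for differences of up to 0.42 and 0.48, so these values do not show that the 3 compounds act alike.

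**Figure D2:**
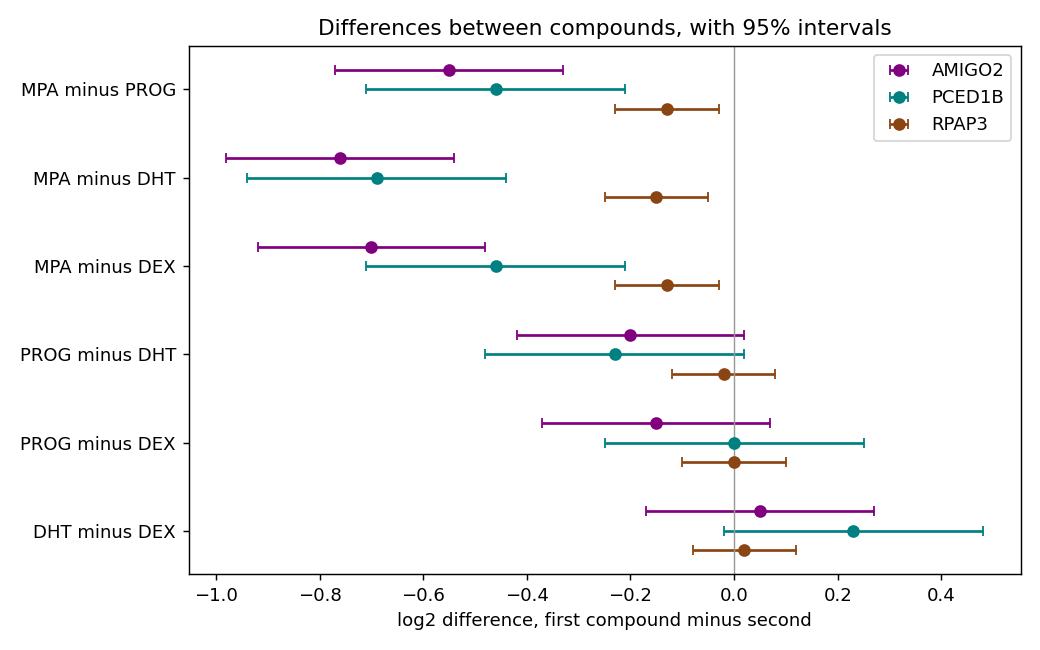
Log2 difference between compounds (horizontal axis, first compound minus second) for the 6 pairs; points are differences of group means of 3 arrays each and bars are the 95% intervals of the limma fit. The intervals of AMIGO2 and PCED1B for the 3 pairs with MPA lie below 0, as do the shorter ones of RPAP3, and those of the other pairs include 0.

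The measured genes around AMIGO2, PCED1B and RPAP3 differed little from vehicle, apart from NELL2 and PRICKLE1, which were higher with MPA. The comparison took the 10 nearest protein-coding genes with a named probe set on each side and PCED1B-AS1, the antisense long non-coding RNA of PCED1B, which was the 1 measured gene of 12 others between AMIGO2 and RPAP3. Apart from those 2 genes, the differences from vehicle of the 21 lay between -0.18 (ZNF641 with DEX) and 0.16 (DBX2 with MPA). Only 17 of the 21 lay above the array medians, and DBX2, which sets the upper end of the range, did not. The AMIGO2 differences, those of PCED1B with MPA, PROG and DEX and that of RPAP3 with MPA lay below that range, while the RPAP3 differences of -0.16 and -0.15 with PROG, DEX and DHT lay inside it. PUS7L, a pseudouridine synthase gene, stood at -0.15 with MPA (-0.29 to -0.01). No test set these genes against AMIGO2, PCED1B and RPAP3. Of the 21, limma called 0 lower than vehicle with any compound, and 1 with MPA, 0 with PROG, 0 with DHT and 1 with DEX were lower at an unadjusted p under 0.05, which 8.19%, 4.38%, 4.27% and 3.43% of all named probe sets were. With the shares called lower over all probe sets given above, a count of 0 of 21 is near the background and is no result about these genes. ZNF641 and PUS7L were named after their values were seen. The median difference from vehicle of the 21 was 0.0433 with MPA, 0 with PROG, -0.00667 with DHT and 0.00333 with DEX, beside -0.00333, 0, -0.00333 and 0.01 over all named probe sets. On the way outward, 8 protein-coding genes on the AMIGO2 side, among them SLC38A4 and SLC38A2, and 13 on the RPAP3 side, among them VDR, lacked a named probe set and were not analysed here.

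SCAF11, a splicing-related factor and the nearest measured gene beyond AMIGO2, read 7.94 ± 0.104 with vehicle and 7.88 ± 0.0265 with MPA, a difference of -0.06 (-0.21 to 0.09). Its differences with PROG, DHT and DEX were -0.04, -0.03 and -0.02. ANO6, the next measured gene beyond SCAF11, differed by 0.14 with MPA (0.05 to 0.23, limma adjusted p = 0.0632). It differed by 0.07 with PROG and by -0.02 with both DHT and DEX. HDAC7, a histone deacetylase on the RPAP3 side, differed by 0.06 with MPA and by 0.07 with each of the other compounds. TMEM106C, a transmembrane protein gene on the same side, differed by 0.05, 0.07, 0.04 and 0.03 with MPA, PROG, DHT and DEX. The probe sets of PCED1B-AS1 (mean 3.27), RAPGEF3 (3.34), which is the nearest measured gene beyond RPAP3, and DBX2 (3.13) lay under the array medians, too dim for a difference or a lack of one to be read.

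The neighbours that were called moved the other way. NELL2, a secreted glycoprotein gene, was the fourth measured gene beyond AMIGO2 and rose with MPA from 6.82 ± 0.0300 to 7.13 ± 0.0709, by 0.31 ± 0.0523 (limma adjusted p = 0.00146). With PROG it rose by 0.27 ± 0.0523 (limma adjusted p = 0.00863), and all MPA and PROG arrays, the lowest at 7.04, lay above the highest vehicle array of 6.85. With DHT and DEX its differences were -0.04 and 0.00. PRICKLE1, a planar cell polarity gene, rose with MPA from 3.83 ± 0.142 to 4.63 ± 0.284, by 0.81 ± 0.142 (limma adjusted p = 0.00223). Its difference with PROG was 0.50 ± 0.142 (limma adjusted p = 0.0976), and its vehicle level is near the array medians, where changes can be understated. Those were the 2 neighbours called higher with MPA and, for NELL2, the 1 with PROG, and the count was 0 with DHT and 0 with DEX by limma. No neighbour was higher with DHT or DEX at an unadjusted p under 0.05, beside 5.63% and 6.99% of all named probe sets. Over all named probe sets, 4.11% were called higher with MPA, 2.43% with PROG, 0.775% with DHT and 0.957% with DEX.

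Between compounds, 3 neighbours were higher with MPA than with DHT: NELL2 (limma adjusted p = 8.02e-04), PRICKLE1 (limma adjusted p = 0.00226) and ANO6, a phospholipid scramblase and ion channel gene (limma adjusted p = 0.0471). The same 3 were higher with MPA than with DEX, at limma adjusted p of 0.00272, 0.0109 and 0.0429. The ANO6 calls ended in 14 and in 12 of the 15 fits that left out a single array, with adjusted p up to 0.164, and held in both comparisons only without MPA 2. The shares called higher with MPA over all named probe sets were 2.53% against DHT and 2.49% against DEX. No neighbour was called between MPA and PROG by limma, where 0.236% of all probe sets were higher with MPA. At an unadjusted p under 0.05, 3 neighbours were higher with MPA than with PROG, beside 4.33% of all named probe sets. The limma count of neighbours lower with MPA was 0 in each of the 3 pairs. The called shares were 0.0539% against PROG, 0.977% against DHT and 1.57% against DEX. At an unadjusted p under 0.05, 1 neighbour was lower with MPA in each pair, beside 4.18%, 6.69% and 8.3% of all named probe sets. NELL2 was also higher with PROG than with DHT (limma adjusted p = 0.00426) and than with DEX (limma adjusted p = 0.0151), and the latter ended without PROG 1, DEX 1 or DEX 3 (adjusted p 0.0783, 0.0743 and 0.0557). Over all named probe sets, 1.71% were called in either direction between PROG and DHT, 1.42% between PROG and DEX and 0.654% between DHT and DEX. Between DHT and DEX the limma count of neighbours was 0. There, 2 were higher with DHT at an unadjusted p under 0.05, beside 3.77% of all named probe sets.

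**Figure D3:**
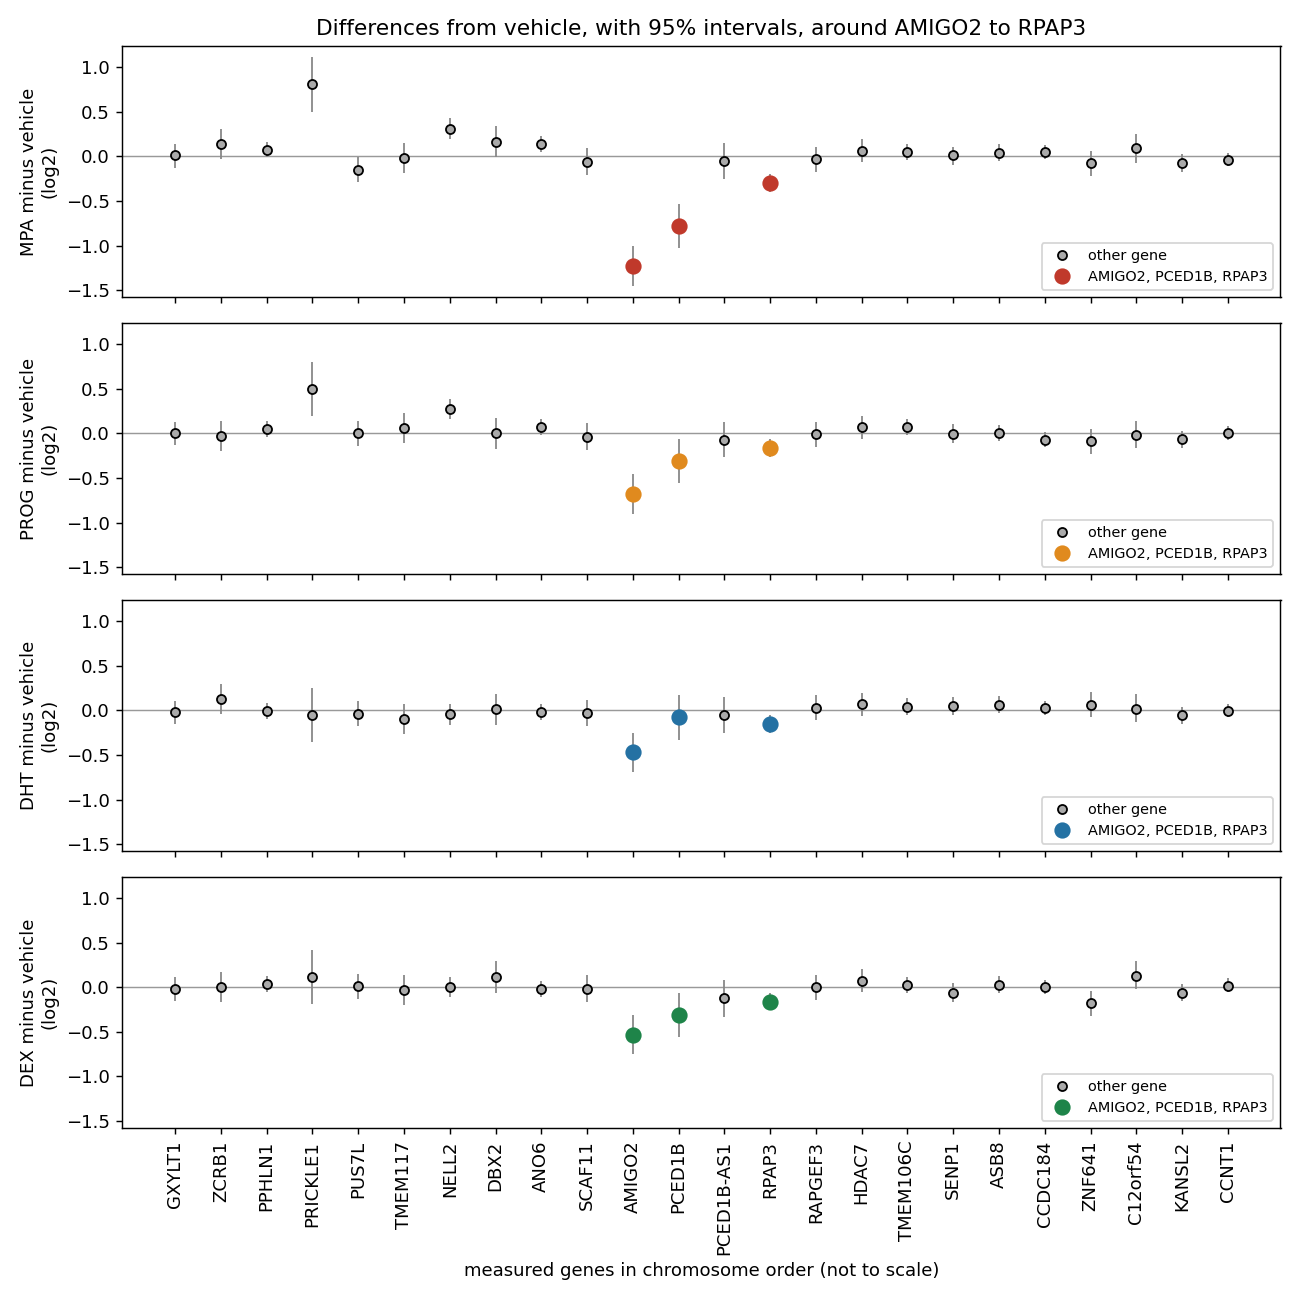
Log2 difference from vehicle (vertical axis, 1 panel per compound) of the measured genes in chromosome order, equally spaced; points are differences of means of 3 arrays each and bars are 95% intervals of the limma fit, with AMIGO2, PCED1B and RPAP3 filled in colour. The 3 genes lie below 0, deepest with MPA at -1.23, -0.78 and -0.30, while the other genes stay between -0.18 and 0.16 apart from PRICKLE1 and NELL2, which reach 0.81 and 0.31 with MPA.

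Genes related to AMIGO2 by structure were described from a list of 39 leucine-rich repeat adhesion and signalling proteins, of which 32 were measured and 13 lay above the array medians. With MPA, 1 of 32 rose and 1 fell, beside called shares of 4.11% and 1.82% over all probe sets. At an unadjusted p under 0.05, 1 was higher and 6 lower with MPA, and 2 and 4 with PROG. The counts were 2 and 2 with DHT and 0 and 3 with DEX. By the same measure 9.26% of all named probe sets were higher and 8.19% lower with MPA, and 7.26% and 4.38% with PROG. The shares were 5.63% and 4.27% with DHT and 6.99% and 3.43% with DEX. LRIG1, a leucine-rich repeat protein that restrains growth factor receptors, rose by 1.01 ± 0.0492 with MPA (limma adjusted p = 8.46e-09), 0.63 ± 0.0492 with PROG (limma adjusted p = 1.92e-06) and 0.29 ± 0.0492 with DHT (limma adjusted p = 0.0108), and differed by 0.07 with DEX (limma adjusted p = 0.708). LRRN2, a neuronal leucine-rich repeat protein gene, fell by 0.40 on the log2 scale with MPA (limma adjusted p = 0.00102) and its difference with PROG was -0.15 (limma adjusted p = 0.357). With PROG and DHT, LRIG1 was the 1 member called, and with DEX the limma count was 0. Over all named probe sets, 2.43%, 0.775% and 0.957% were called higher with PROG, DHT and DEX. The median over the measured members was 0 with MPA, -0.03 with PROG, -0.00667 with DHT and -0.00167 with DEX. The AMIGO2 paralogues were not called: AMIGO1 stood at 0.06, 0.15, 0.15 and 0.14 with MPA, PROG, DHT and DEX, and AMIGO3 at 0.06, 0.00, 0.07 and 0.00.

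PDPK1, which encodes the kinase PDK1, and the Akt genes form a list of 4, of which 3 were measured. None was called by limma with any compound, nor had any an unadjusted p under 0.05. PDPK1 differed by 0.06 with MPA and 0.00 with DEX, and AKT1 by -0.06 with MPA and 0.03 with DEX.

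Of 6 genes of the PC-esterase family, the relatives of PCED1B, 2 were measured. CASD1, a sialic acid acetyltransferase, rose by 0.57 ± 0.0587 with MPA (limma adjusted p = 1.80e-05) and by 0.40 ± 0.0587 with PROG (limma adjusted p = 0.00103). With DHT it was called at 0.28 ± 0.0587 (limma adjusted p = 0.0417), which ended in 15 of 22 alternatives, with adjusted p up to 0.210. With DEX it differed by 0.06 (limma adjusted p = 0.785). PCED1A, the paralogue of PCED1B, differed by 0.13, 0.21, 0.17 and 0.11 with MPA, PROG, DHT and DEX and was not called (limma adjusted p = 0.378, 0.178, 0.443 and 0.666).

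The partners of RPAP3 were described from 4 lists. Of 16 genes of the R2TP and prefoldin-like complex and its adaptors, 10 were measured, all above the array medians. The limma count was 1 higher with MPA, 1 higher with DHT and 0 with PROG or DEX. Over all named probe sets, 4.11% were called higher with MPA, 0.775% with DHT, 2.43% with PROG and 0.957% with DEX. At an unadjusted p under 0.05, 2 genes were higher with PROG and 0 with DEX, beside 7.26% and 6.99% of all named probe sets. By that measure 1 was higher and 1 lower with MPA, beside 9.26% and 8.19%, and 2 were higher with DHT, beside 5.63%. The gene called was TTI1 each time. TTI1, an adaptor for PI3K-like kinases, rose by 0.22 ± 0.0397 with MPA (limma adjusted p = 0.00280) and by 0.20 ± 0.0397 with DHT (limma adjusted p = 0.0314), a call that ended without vehicle 2, vehicle 3, DHT 1 or DHT 2 (adjusted p 0.111, 0.0982, 0.110 and 0.137). The core subunits were not called with any compound. With MPA their differences were -0.09 for RUVBL1, 0.10 for RUVBL2 and 0.13 for PIH1D1. The list's median was 0.0183 with MPA, 0.04 with PROG, 0.065 with DHT and 0.005 with DEX.

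The other 3 lists hold what RPAP3 works with or on. Of 8 genes for HSP90 and its co-chaperones 4 were measured, of 16 for RNA polymerase II and its assembly factors 9, and of 7 for the box C/D snoRNP 4. None of these 17 genes was called with any compound by limma. At an unadjusted p under 0.05, 1 in each list was lower with MPA, beside 8.19% of all named probe sets. By the same measure the polymerase list had 1 lower with PROG, 2 lower with DHT and 1 higher with DEX. The shares over all named probe sets were 4.38%, 4.27% and 6.99%. The medians of the 3 lists with MPA were -0.0333, -0.0267 and -0.0683. The 2 brightest members of each list are given with their differences with MPA. Those for HSP90 were PTGES3, the p23 co-chaperone (-0.16), and CDC37, which loads kinases onto HSP90 (0.05). Those for the polymerase were POLR2D, a subunit (-0.03), and RPAP2, a phosphatase of the polymerase tail (-0.08). Those for the snoRNP were FBL, the methyltransferase fibrillarin (0.04), and NOP58, a core protein (-0.13).

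AMIGO2, PCED1B and RPAP3 followed each other across the arrays. Over the 5 group means Pearson's r was 0.95 for AMIGO2 with PCED1B, 0.984 for AMIGO2 with RPAP3 and 0.913 for PCED1B with RPAP3, and over the 15 arrays 0.896, 0.881 and 0.744. These are descriptions of points that share arrays and groups, and genes chosen for lower levels in the same groups correlate by that choice.

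For each gene the most similar patterns were then sought among 330 other named probe sets (331 for RPAP3) with a mean above the median of all values, 3.70, and group means spanning at least 0.5. The measure was r over the 5 group means, given first, with r over the 15 arrays after it. The genes most like AMIGO2 were NVL, a nuclear ATPase of ribosome assembly (0.997, 0.955), NPR3, the natriuretic peptide clearance receptor (0.992, 0.964), the growth factor genes BMP4 (0.99, 0.91) and KITLG (0.99, 0.963), and the long non-coding RNA MIR181A1HG (0.985, 0.876). NVL went from 10.18 with vehicle to 9.57 with MPA, 9.85 with PROG, 9.98 with DHT and 9.95 with DEX. The most opposite were the sulfotransferase gene CHST3 (-0.995, -0.921), RIPPLY3 (-0.993, -0.87), PSD4 (-0.992, -0.938), DLG5-AS1 (-0.988, -0.701) and the small GTPase gene RHOB (-0.986, -0.905). CHST3 went from 6.64 with vehicle to 7.27 with MPA and between 6.94 and 6.99 with the other compounds.

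The genes most like PCED1B were the kinase gene LRRK2 (0.994, 0.862), KITLG (0.979, 0.855), NPR3 (0.966, 0.89), ZNF239 (0.965, 0.611) and MIR181A1HG (0.961, 0.882). LRRK2 went from 6.39 with vehicle to 5.69 with MPA, 6.10 with PROG, 6.24 with DHT and 6.07 with DEX. The most opposite were STEAP4 (-0.981, -0.843), SNAI2 (-0.971, -0.764), HBEGF (-0.967, -0.78), PSD4 (-0.966, -0.844) and DDIT4 (-0.956, -0.843). RPAP3 was most like NPR3 (0.987, 0.859), AMIGO2 itself (0.984, 0.881), NVL (0.97, 0.887), PDGFD (0.964, 0.899) and NLGN4Y-AS1 (0.962, 0.628). It was most opposite to CHST3 (-0.995, -0.907), PA2G4P4 (-0.984, -0.766), ARHGEF28 (-0.98, -0.891), RIPPLY3 (-0.978, -0.813) and WWC1 (-0.977, -0.86). NPR3 was thus among the 5 most alike of all 3 genes. With 5 group means, high values of r are common, and no p is given.

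**Figure D4:**
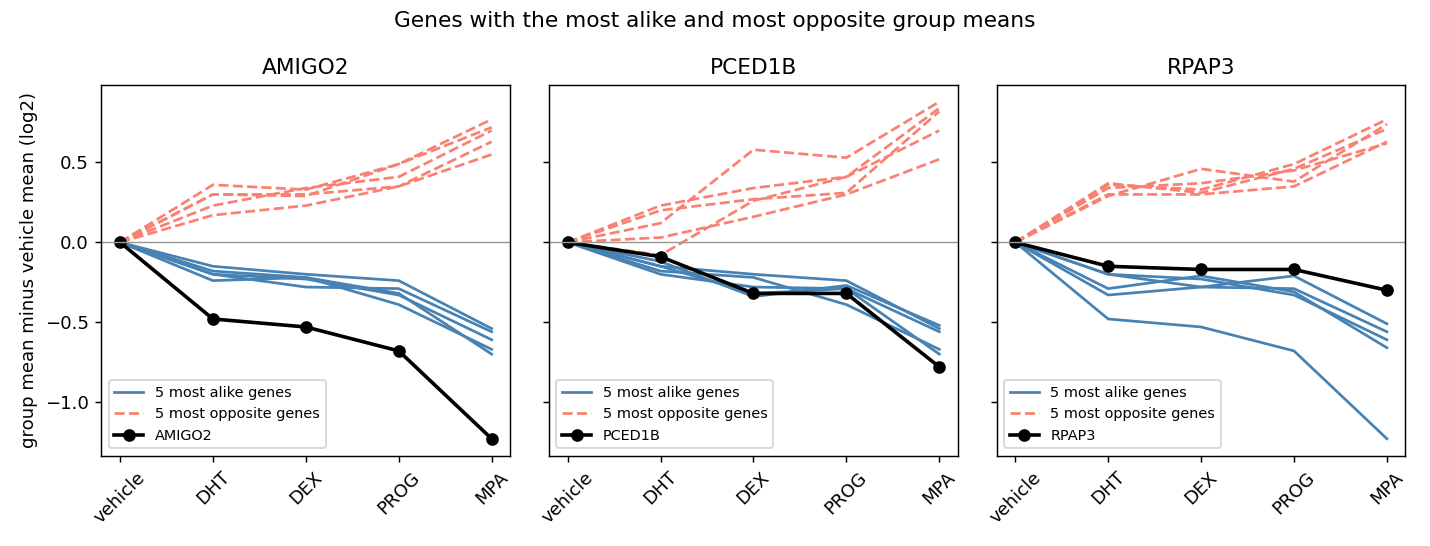
Group mean minus vehicle mean on the log2 scale (vertical axis) by group (horizontal axis) for AMIGO2, PCED1B and RPAP3 in black, with the 5 most alike genes as solid blue lines and the 5 most opposite genes as dashed red lines. AMIGO2 reaches -1.23 and RPAP3 -0.30 with MPA; the other genes had to span at least 0.5 between group means, so their size against RPAP3 is set by that filter, and lines join groups only to guide the eye.

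The arrays themselves differed little. Arrays of 1 group correlated with r from 0.997 to 0.998 over all probe sets. Of 8 luminal epithelial markers, 7 were measured, all above the array medians, with means of 5.87 to 12.10 and a summed level of 65.77 to 66.52 by group. The basal keratins KRT5 and KRT14 (2.96 and 2.97), the blood marker CD14 (3.41) and the endothelial marker VWF (3.16) lay under the array medians in the mean, with summed levels by group of 5.89 to 6.04, 3.31 to 3.50 and 3.05 to 3.21. Only 2 of 4 basal, 1 of 4 blood and 1 of 3 endothelial markers listed were measured. None of the 4 fibroblast markers listed had a named probe set here.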

How the data were processed

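Total RNA was amplified, labelled and hybridised to 1 Affymetrix array per sample, per the labels' protocols. The authors deposited log2 expression values with 2 decimals for 34878 probe sets. The submitters' processing notes name Partek and RMA, while versions, settings and genome build are stated in none of the sources used here. RMA gives arrays like distributions and can compress changes of dim probe sets. Groups and replicate numbers came from the sample titles.

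The platform annotation gives 14841 probe sets exactly 1 symbol, and these are the named probe sets. The other 20037, whether without a symbol or with several, were left out of the named set. Symbols were updated, and neighbours found, through a RefSeq gene table (GRCh38.p14). Of the 14361 genes, 405 have several probe sets, and lists used the one with the highest mean. limma 3.58.1 in R 4.3.3 fitted 5 group means to 15 arrays (10 residual degrees of freedom, prior 3.81) on the values as deposited. Contrasts were 2-sided, with Benjamini-Hochberg adjustment over the 14841 probe sets within each, and called under 0.05. The code was tested on simulated data. For AMIGO2, PCED1B and RPAP3 the contrasts between compounds were run as tests too, but since the treated arrays took part in their choice, the report gives those as descriptions.

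The 3 genes and all gene lists were chosen with earlier results of these data known. Named were the neighbour inside the span, the 3 nearest on each side and any further one called, the called members of each list or its 2 highest where none was called, and the 5 most alike and most opposite genes. AMIGO1, AMIGO3, PCED1A, RUVBL1, RUVBL2 and PIH1D1 are named as paralogues or core subunits, and ZNF641 and PUS7L after their values were seen, outside that rule. The replicate numbers did not pair the arrays. Alternatives were a replicate block, median centring, quantile normalization, a filter on dim probe sets, limma-trend, all probe sets, only the groups compared and each array left out.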

Additional observations from a re-analysis of the deposited data

How the results depend on the processing

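The differences of AMIGO2, PCED1B and RPAP3 from vehicle were recomputed in 240 alternatives, and each moved the value by less than the pooled SD of the 2 groups compared. Most of these could not do otherwise, so the count shows no robustness. With 3 arrays per group, leaving out 1 cannot move a difference that far. The replicate block, the filter on dim probe sets and the fit of only 2 groups leave it unchanged. Only median centring and quantile normalization could have moved it further. The largest moves relative to the value, with a single array left out, were those of RPAP3 without vehicle 1 (PROG and DEX -0.16 to -0.11, DHT -0.15 to -0.09) and of PCED1B with DHT (-0.08 to a range of -0.20 to 0.01). The limits are 3 arrays per group and the log2 compression of dim probe sets.

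Differences between compounds were recomputed in 414 alternatives. A reversal of sign was counted only for differences that limma called, and 0 of those reversed. For the others the sign was not followed, and PCED1B between PROG and DEX, at 0.00, ran from -0.10 to 0.10. The limma adjusted p of the 3 genes uses arrays that took part in their choice. Crossings of the threshold, by 30 alternatives in all, therefore support nothing, and those p are not given. They fell on AMIGO2 between MPA and PROG, PCED1B between MPA and DEX and RPAP3 between MPA and DHT. AMIGO2 between MPA and PROG was -0.55 with all probe sets tested and with only the 2 groups compared. Neither setting can change a difference of group means, so this is no sign of stability. Over single arrays left out the AMIGO2 difference gave -0.68 to -0.44. PCED1B between MPA and DEX was likewise -0.46 by construction in the same settings and gave -0.57 to -0.37 over single arrays left out. RPAP3 between MPA and DHT (-0.15) gave -0.16 to -0.13. An adjustment over the 6 contrasts together was added after seeing the data. What moved a value across the threshold was not tested. Fits of 2 groups use fewer arrays. Leaving out vehicle 1 cannot change the RPAP3 difference between MPA and DHT (-0.15), and its SE was then 0.0369, beside 0.0471 with all arrays.

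Replicate numbers shared between groups gave residual correlations of -0.0549 to 0.105 over 30 same-numbered pairs, 1 of them above 0.1, so they do not pair the arrays. With the number as a block, which leaves differences of group means unchanged, AMIGO2 between MPA and PROG (-0.55) crossed the threshold. No other value of the 3 genes did. The block also ended the ANO6 calls (adjusted p 0.0751 and 0.0707) and, with DHT, those of CASD1 (0.0670) and TTI1 (0.0528).

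Of the 21 chromosome neighbours, the count called between PROG and vehicle was 1 to 2 over single arrays left out, reaching 2 without MPA 1 or DHT 3. Between PROG and DHT it was 1 to 2 likewise, and 0 with only the 2 groups compared, where it was 1 for MPA against DHT and 1 for MPA against DEX. Between PROG and DEX it was 0 to 1 over single arrays left out. Fits of only the 2 groups compared also ended the calls of NELL2 with PROG (limma adjusted p = 0.0770), of PRICKLE1 between MPA and DHT (0.0686) and MPA and DEX (0.0504), of LRIG1 with DHT (0.110) and of TTI1 with MPA (0.0554). The related genes called with DHT numbered 3, and 0 to 4 over the alternatives. With only the 2 groups compared, all calls fell from 880 to 526 (MPA against vehicle), 419 to 255 (PROG), 132 to 54 (DHT), 164 to 44 (DEX), 43 to 7 (MPA against PROG), 521 to 292 (MPA against DHT), 602 to 285 (MPA against DEX), 254 to 146 (PROG against DHT), 211 to 122 (PROG against DEX) and 97 to 39 (DHT against DEX). With limma-trend they rose from 132 to 220 (DHT against vehicle), 43 to 71 (MPA against PROG) and 97 to 166 (DHT against DEX).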
